A study of Mus musculus with 29 samples.

Results

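The remodelling of the extracellular matrix depends on a few families of genes. The 86 genes described here are the matrix metalloproteinases (Mmp), their tissue inhibitors (Timp), the membrane proteases of the ADAM family, the secreted ADAMTS proteases, the protease-like ADAMTSL proteins and the lysyl oxidases (Lox, Loxl). They were taken by symbol from the annotation of the Mouse Gene 2.0 ST array, out of 22180 genes with a row of their own. Where a gene had several rows, the row with the highest mean was used. They comprise 22 Mmp, 4 Timp, 33 Adam, 18 Adamts, 5 Adamtsl and 4 lysyl oxidase genes. Of these, 51 passed the filter of a log2 level above 5 in at least 3 arrays and entered the test: 15 Mmp, 4 Timp, 11 Adam, 13 Adamts, 4 Adamtsl and 4 lysyl oxidase genes. The other 35 stayed below that filter and are listed further on. Of the 51, 8 had fewer than 3 sham arrays above the filter level and passed it through the ligated livers: Adamts5, Adamtsl1, Lox, Mmp8, Mmp12, Mmp28, Timp1 and Timp4.

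Livers came from male wild-type C57BL/6N mice, 8 to 10 weeks old, whose extrahepatic common bile duct had been tied off (bile duct ligation, BDL) or who had had a sham operation. BDL livers were taken 1, 3, 7 and 21 days after surgery, 5 mice at each time. Sham livers were taken after 1 day (3 mice), 3 days (2 mice) and 7 days (4 mice), and all animals ate a standard diet. Total RNA of whole liver was hybridised to 1 Affymetrix array per mouse, 29 in all, and values are log2 levels. Day 21 has no sham group of its own and was set against the day 7 sham livers. The effect of ligation and that of the longer time since surgery cannot be told apart in that comparison. The day 7 and day 21 comparisons share those 4 sham arrays.

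Matrix metalloproteinases are zinc proteases that cut collagens, elastin, laminins and many non-matrix proteins, and they are made as inactive precursors. The TIMP proteins bind their active site and block them. ADAM proteases release the outer part of membrane proteins such as growth factors and cytokine receptors, ADAMTS proteases cut proteoglycans, procollagens and von Willebrand factor, and ADAMTSL proteins carry the same accessory domains without the protease. Lysyl oxidases crosslink collagen and elastin fibres. Tying off the bile duct is a standard model of cholestatic liver injury, in which bile ducts multiply around the portal fields, inflammatory cells enter and collagen is laid down.

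The arrays were alike in median level (4.90 to 5.13), and 2 departures bear on the results. On 4 of the 8 day 1 arrays (BDL replicates 2 and 3 and sham replicates 1 and 3) the spread of levels over the tested genes was narrower (SD 1.55 to 1.58) than on the other 25 arrays (SD 1.64 to 1.70). Each day 1 group holds arrays of both kinds, so that the called members' day 1 differences are also given within each kind. Replicate 1 of the day 7 sham livers had a mean of 8.02 over 12 collagen genes, against 6.45 to 6.91 on the other 3 day 7 sham arrays. It was the highest of the 4 day 7 sham arrays for 25 of the 51 tested members (49.0%), compared with 28.2% of all genes tested. Counts at day 7 and day 21 are therefore also given without it, as are the differences whose call it changes or which it moves by over 1.5 times. In whole-tissue RNA, fewer cells of a type and less RNA per cell cannot be told apart.

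The region before the start of a gene shows how differently the members are built, so 6 promoters are printed for genes that the results below turn on. They cover 250 bases before to 50 bases after the RefSeq start (build GRCm38.p6), and 52 of the 86 members matched an entry, with 57 windows. Capitals mark matches to 3 motifs searched on both strands: the AP-1 motif TGANTCA, the TATA box TATAAA and the GC box GGGCGG (on the opposite strand it reads CCGCCC), overlapping matches included. Mmp7 and Mmp12 were called at days 3, 7 and 21. Mmp10 and Mmp13 lie in the same run of genes on chromosome 9 and were not called. Mmp14 and Timp1 were called in all 4 comparisons with sham livers.
Mmp7, chr9:7691840-7692139, plus strand: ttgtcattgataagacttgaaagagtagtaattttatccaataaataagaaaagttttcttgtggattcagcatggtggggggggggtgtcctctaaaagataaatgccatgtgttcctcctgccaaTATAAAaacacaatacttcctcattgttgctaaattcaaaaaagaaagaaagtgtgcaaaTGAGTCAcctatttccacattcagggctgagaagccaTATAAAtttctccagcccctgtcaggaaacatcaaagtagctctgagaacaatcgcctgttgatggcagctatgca
Mmp12, chr9:7347124-7347423, plus strand: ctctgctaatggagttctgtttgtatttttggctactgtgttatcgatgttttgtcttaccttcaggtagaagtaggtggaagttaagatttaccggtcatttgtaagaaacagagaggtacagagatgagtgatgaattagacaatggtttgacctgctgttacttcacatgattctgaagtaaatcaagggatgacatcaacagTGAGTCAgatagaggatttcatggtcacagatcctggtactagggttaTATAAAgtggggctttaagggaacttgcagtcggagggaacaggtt
Mmp10, chr9:7502092-7502391, plus strand: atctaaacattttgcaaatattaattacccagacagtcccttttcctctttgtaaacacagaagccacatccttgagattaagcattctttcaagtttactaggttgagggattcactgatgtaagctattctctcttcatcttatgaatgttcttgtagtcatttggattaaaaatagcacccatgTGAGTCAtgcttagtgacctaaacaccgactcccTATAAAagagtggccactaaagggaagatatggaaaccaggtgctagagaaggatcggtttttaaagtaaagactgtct
Mmp13, chr9:7272264-7272563, plus strand: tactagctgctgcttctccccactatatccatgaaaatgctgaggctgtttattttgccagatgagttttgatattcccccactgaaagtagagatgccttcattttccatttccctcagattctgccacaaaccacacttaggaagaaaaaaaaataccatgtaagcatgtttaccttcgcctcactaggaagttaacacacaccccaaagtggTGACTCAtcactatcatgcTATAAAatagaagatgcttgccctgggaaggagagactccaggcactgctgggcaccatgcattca
Mmp14, chr14:54431348-54431647, plus strand: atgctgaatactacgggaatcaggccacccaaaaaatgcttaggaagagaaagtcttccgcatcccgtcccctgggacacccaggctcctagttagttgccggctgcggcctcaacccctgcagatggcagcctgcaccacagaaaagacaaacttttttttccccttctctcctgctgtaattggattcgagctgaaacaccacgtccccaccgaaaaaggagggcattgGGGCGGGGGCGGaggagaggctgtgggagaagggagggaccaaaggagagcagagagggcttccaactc
Timp1, chrX:20869916-20870215, plus strand: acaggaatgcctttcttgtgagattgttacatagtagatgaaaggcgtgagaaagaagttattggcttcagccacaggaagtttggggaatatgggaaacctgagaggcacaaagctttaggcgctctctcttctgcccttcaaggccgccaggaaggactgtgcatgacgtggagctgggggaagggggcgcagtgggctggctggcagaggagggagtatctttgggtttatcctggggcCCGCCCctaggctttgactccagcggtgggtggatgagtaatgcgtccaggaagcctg

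In the Mmp7 window an AP-1 match starts at position -63 from the start of the gene and a TATA match at position -26. In the Mmp10 window they start at positions -63 and -29, in the Mmp13 window at -35 and -16, and in the second RefSeq start of Mmp12 at -44 and 5. The Mmp14 window held neither and had 2 GC boxes, at positions -19 and -13, and the Timp1 window had 1 GC box on the opposite strand at -8. Over all 32851 promoter windows, 7.81% held the AP-1 motif, 13.6% the TATA box and 35.7% the GC box. Over the members' 57 windows the shares were 22.8%, 28.1% and 45.6%. Both the AP-1 motif and the TATA box stood in 1.54% of all windows and in 8 of the 10 neighbouring Mmp genes on chromosome 9 (Mmp13, Mmp12, Mmp1b, Mmp3, Mmp1a, Mmp10, Mmp20 and Mmp7). Outside that run 1 of 42 members with an entry held both. The matches are letters in a window and say nothing of binding.

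Within that run on chromosome 9, Mmp7 and Mmp12 rose at days 3, 7 and 21, Mmp8 rose at days 1, 3 and 21, and Mmp27 fell at day 1. Mmp10, a stromelysin, passed the filter and was called in no comparison, with levels of 4.93 to 5.90 over all arrays. The remaining 5 genes (Mmp13, Mmp1b, Mmp3, Mmp1a and Mmp20) stayed below the filter. Mmp13, the main collagenase of rodents, exceeded the filter level on 1 array, at 5.09. The motif pair was thus present in 2 genes that rose and in 6 that were not called or not tested.

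Members were counted as risen or fallen at an adjusted p under 0.05 (limma, Benjamini-Hochberg over all 14699 genes tested). At day 1, 7 of 51 rose (Mmp8, Mmp9, Mmp14, Timp1, Adam8, Adamts1 and Adamts9) and 4 fell (Mmp27, Adam11, Adam33 and Adamts13), where 8.52% of all genes tested were called higher and 4.8% lower. At day 3, 14 rose and 0 fell, against 6.47% and 3.69% of all genes. At day 7, 20 rose and 0 fell, against 14.2% and 4.97%. At day 21, 27 rose and 2 fell, against 17.3% and 7.9%. Members called higher thus made up 13.7%, 27.5%, 39.2% and 52.9% of the 51 on days 1, 3, 7 and 21. Those risen at day 21 include Adamts5, Adamtsl1, Lox, Mmp8, Mmp12 and Timp1, which passed the filter through the ligated livers. Without the filter, 5, 12, 19 and 28 of 86 members were called higher on these days and 4, 0, 0 and 1 lower. Over 22180 genes, 1081, 843, 1972 and 2423 were then called higher and 636, 537, 736 and 1222 lower. The median log2 fold change over the 51 tested members was 0.13, 0.27, 0.36 and 0.52 at days 1, 3, 7 and 21, and over all genes tested it was 0.02, 0.02, 0.03 and 0.02. Over all 86 members it was 0.07, 0.12, 0.12 and 0.19. At day 3, where 0 members fell by limma, 22 members had an unadjusted p under 0.05 in either direction, and at day 7 27 did. After cyclic loess scaling, 1 member was called lower at day 3.

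**Figure D1:**
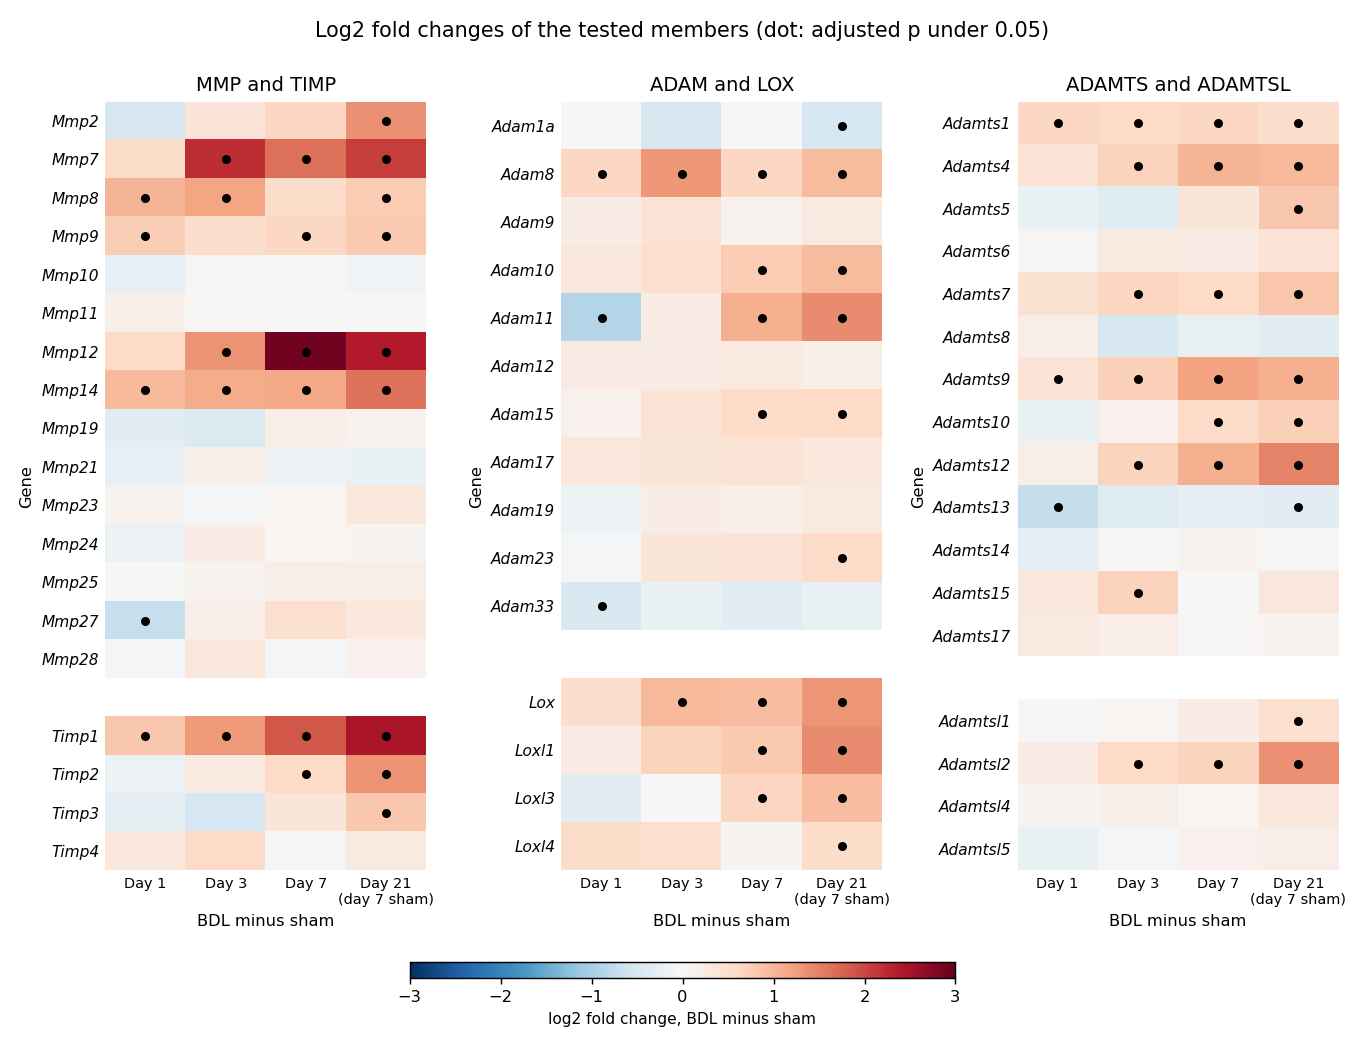
Log2 fold changes (BDL minus sham, colour scale from -3 to 3) of the 51 tested members in rows, by family, at day 1, 3, 7 and 21 in columns; day 21 is set against day 7 sham livers. A dot marks an adjusted p under 0.05: 11 members at day 1, 14 at day 3, 20 at day 7 and 29 at day 21, with a fitted value of 2.90 for Mmp12 at day 7.

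Of the 51, 5 members rose in all 4 comparisons: Mmp14, Timp1, Adam8, Adamts1 and Adamts9. A further 9 rose in 3 (Mmp7, Mmp8, Mmp9, Mmp12, Adamts4, Adamts7, Adamts12, Adamtsl2 and Lox), 7 in 2 and 7 in 1. The 19 members called in none of the 4 comparisons included Adam9, Adam12, Adam17, Adam19, Mmp11, Mmp19, Mmp23 and Timp4. Cyclic loess scaling moved the split of calls over all genes at day 1 (7.58% higher and 6.91% lower) and at day 7 (13.0% and 7.83%), and the members then stood at 6 higher and 4 lower at day 1 and 18 higher and 2 lower at day 7.

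Among the metalloproteinases, Mmp7 (matrilysin, a small secreted protease of epithelia) had levels of 7.39, 6.76, 7.29, 7.43 and 7.11 in day 3 BDL livers, against 5.08 and 4.87 in day 3 sham livers. The groups lay far apart, with every BDL array above both sham arrays. The fitted log2 fold change of the row used was 2.22 ± 0.22 (SE, adjusted p = 1.5e-07), at least 2.19 down to the filter level. Day 7 levels were 6.55, 6.72, 6.82, 6.77 and 7.08 in BDL livers, against 4.60, 5.43, 5.22 and 5.34 in sham livers, and the day 21 BDL livers had 7.59, 7.38, 6.92, 7.20 and 7.05. Neither ligated group reached down to the sham range. The differences were 1.64 ± 0.18 (SE, adjusted p = 1.9e-07) at day 7 and 2.08 ± 0.18 (SE, adjusted p = 1.5e-09) at day 21. Under the alternatives other than leaving out 1 array, the lowest values at days 3, 7 and 21 were 1.11, 0.74 and 1.10. The calls held, but the sizes thus depend on the processing. At day 1 the levels of 6.07, 5.71, 6.53, 6.53 and 5.95 in BDL livers overlapped 5.78, 5.65 and 5.38 in sham livers (0.56 ± 0.20 SE, adjusted p = 0.059). Without BDL replicate 2 the day 1 difference was called (0.67, adjusted p = 0.021). With the mean of the rows of Mmp7 it was called as well (0.49, adjusted p = 0.007).

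Mmp12, the macrophage elastase, rose at days 3, 7 and 21. Its levels were 7.94, 6.91, 7.55, 7.78 and 7.66 in day 7 BDL livers and 6.65, 6.89, 6.94, 7.49 and 7.32 in day 21 BDL livers, against 4.81, 4.33, 4.93 and 4.62 in day 7 sham livers. All sham levels were below 5, where a level is not told apart from background, and every BDL array was above them. The log2 fold change was 2.90 ± 0.21 (SE, adjusted p = 1.1e-10) at day 7, or at least 2.57 down to the filter level, and 2.39 ± 0.21 (SE, adjusted p = 1.5e-09) at day 21, or at least 2.06. Day 3 BDL livers had 5.74, 6.66, 5.54, 5.82 and 5.62, against 4.33 and 4.72 in sham livers (1.35 ± 0.26 SE, adjusted p = 7.9e-04, at least 0.88). Replicate 2 stood above the other day 3 BDL arrays. At day 1 the levels were 4.97 to 5.44 in BDL livers and 4.41 to 4.72 in sham livers, without overlap, and the difference of 0.57 ± 0.22 (SE, adjusted p = 0.094) was not called.

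Mmp14, the membrane-bound collagenase that also activates the precursor of Mmp2, was higher on every BDL array than on any sham array of its comparison at all 4 times. Day 1 levels were 9.30, 9.15, 9.19, 9.47 and 9.61 in BDL livers, against 8.38, 8.69 and 8.03 in sham livers (0.98 ± 0.19 SE, adjusted p = 5.7e-04). Day 3 levels were 9.43, 9.13, 9.75, 9.91 and 9.95 in BDL livers, against 8.69 and 8.36 in sham livers (1.11 ± 0.21 SE, adjusted p = 8.6e-04). Levels were 9.68, 9.44, 9.35, 9.60 and 9.82 in day 7 BDL livers and 9.85, 10.14, 10.18, 10.12 and 10.06 in day 21 BDL livers, against 8.92, 8.43, 8.43 and 7.97 in day 7 sham livers. All 5 day 21 BDL arrays were above the highest day 7 BDL array, but Mmp14 was not called between these 2 groups. On the log2 scale the changes were 1.14 ± 0.17 (SE, adjusted p = 1.5e-05) and 1.64 ± 0.17 (SE, adjusted p = 3.2e-08). Within the 4 narrow day 1 arrays the difference was 0.97 (adjusted p = 0.012), and within the other day 1 arrays 0.77 (adjusted p = 0.14).

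Mmp2, gelatinase A, rose at day 21. Its levels were 7.43, 7.91, 8.08, 8.53 and 7.73 in day 21 BDL livers and 7.05, 7.04, 7.26, 7.53 and 7.07 in day 7 BDL livers, against 7.61, 6.16, 6.60 and 5.84 in day 7 sham livers. Sham replicate 1 lay above the day 7 BDL arrays and within the day 21 range, and the other 3 sham arrays lay below both. The fitted log2 fold change was 1.38 ± 0.26 (SE, adjusted p = 1.7e-04) at day 21 and 0.63 ± 0.26 (SE, adjusted p = 0.089) at day 7. Without sham replicate 1 these were 1.74 ± 0.23 (SE, adjusted p = 1.7e-06) and 0.99 ± 0.23 (SE, adjusted p = 0.003), and the day 7 difference was then called. At day 1 Mmp2 had 5.45, 4.75, 5.55, 5.88 and 5.26 in BDL livers, against 6.01, 5.75 and 5.81 in sham livers, a difference of -0.48 ± 0.28 (SE, adjusted p = 0.30) that was not called, and at day 3 the difference was 0.38 ± 0.32 (SE, adjusted p = 0.54). Against all 9 sham arrays, which pool sham livers of days 1, 3 and 7, the day 1 difference of Mmp2 was called (-0.84, adjusted p = 0.008).

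Mmp8, the neutrophil collagenase, was higher at days 1 and 3. Its levels were 5.54, 5.23, 4.99, 5.27 and 5.58 in day 1 BDL livers, against 4.76, 4.23 and 3.92 in sham livers (1.02 ± 0.24 SE, adjusted p = 0.005). At day 3 they were 5.52, 4.90, 5.15, 6.00 and 5.97 in BDL livers, against 4.17 and 4.49 in sham livers (1.18 ± 0.28 SE, adjusted p = 0.005). The groups did not overlap at either time, but the sham levels were below 5, so that the sizes are at least 0.32 and at least 0.51. At day 7 the difference was 0.55 ± 0.22 (SE, adjusted p = 0.083) and was not called, although it was without BDL replicate 2 or sham replicate 2 (0.65 to 0.71, adjusted p up to 0.049). At day 21 it was 0.76 ± 0.22 (SE, adjusted p = 0.012), at least 0.04. The day 1 call was lost without sham replicate 3 (0.83, adjusted p = 0.056) and the day 3 call without sham replicate 1 (1.02, adjusted p = 0.10).

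Mmp9, gelatinase B, had 6.20, 5.86, 6.02, 5.91 and 7.26 in day 1 BDL livers, against 5.53, 5.50 and 5.48 in sham livers. The 3 sham levels lay close together, and BDL replicate 5 stood well above the other BDL arrays. The log2 fold change was 0.74 ± 0.23 (SE, adjusted p = 0.031), and the call was lost without BDL replicate 5 or sham replicate 1, 2 or 3 (0.49 to 0.76, adjusted p up to 0.097). At day 3 the difference was 0.54 ± 0.27 (SE, adjusted p = 0.23). It was 0.62 ± 0.21 (SE, adjusted p = 0.041) at day 7, where the call was lost without BDL replicate 1, 4 or 5 or sham replicate 1, 2 or 4 (0.53 to 0.62, adjusted p up to 0.13), and 0.79 ± 0.21 (SE, adjusted p = 0.006) at day 21. At both later times the BDL range overlapped the sham range.

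**Figure D2:**
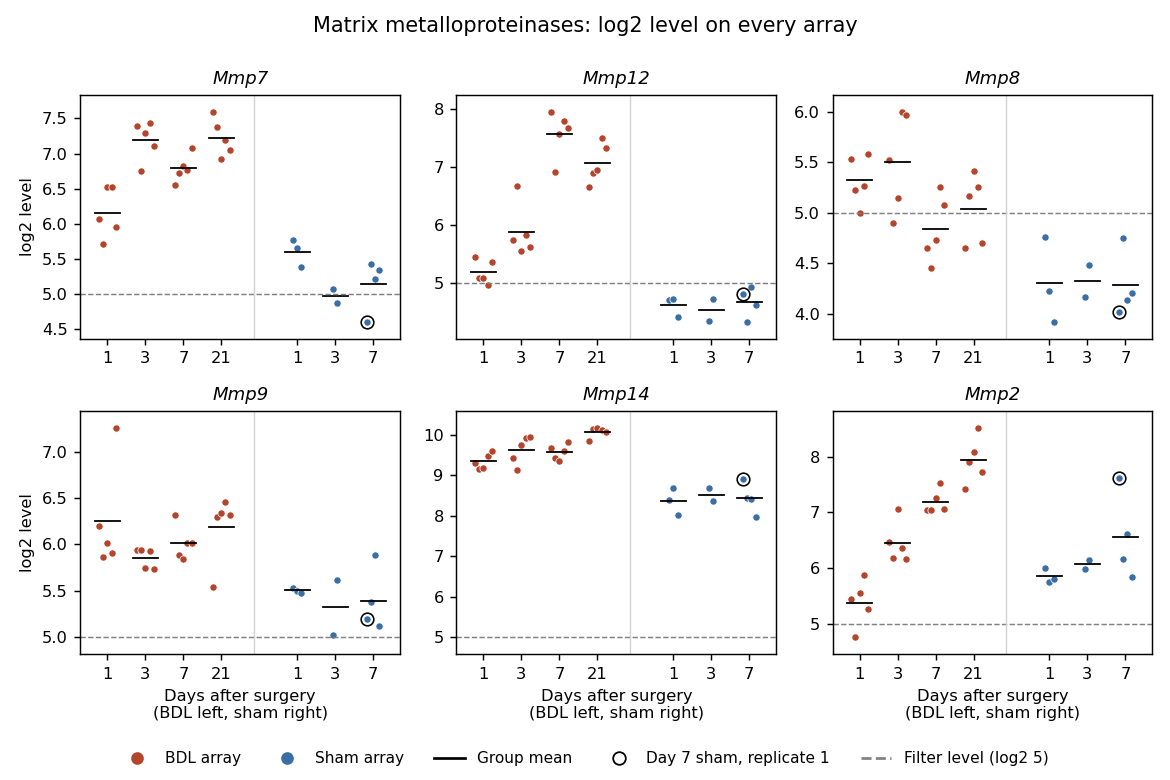
Log2 level (vertical axis, a scale of its own for each gene) of Mmp7, Mmp12, Mmp8, Mmp9, Mmp14 and Mmp2 on every array, with BDL groups by day on the left and sham groups on the right; bars are group means, the dashed line is the filter level and the circle marks day 7 sham replicate 1. Mmp12 sits between 6.91 and 7.94 in day 7 BDL livers and below 5 in all sham livers, and Mmp14 lies between 9.85 and 10.18 at day 21.

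Few of the other tested metalloproteinases were called. Mmp27 had 5.17, 4.35, 4.50, 4.15 and 4.95 in day 1 BDL livers, against 5.58, 5.34 and 5.05 in sham livers (-0.69 ± 0.21 SE, adjusted p = 0.023, at least 0.32 in size). The ranges overlapped, and the call was lost without BDL replicate 4 or sham replicate 1 (-0.58 to -0.56, adjusted p up to 0.15). Mmp19, a secreted protease with a hemopexin domain, had differences of -0.31, -0.45, 0.20 and 0.11 at days 1, 3, 7 and 21, none of them called. Mmp23 differed by 0.32 ± 0.13 (SE, adjusted p = 0.076) at day 21 and by 0.49 ± 0.12 (SE, adjusted p = 0.002) without sham replicate 1, which had 6.24 against 5.41 to 5.63 on the other day 7 sham arrays. Mmp10, Mmp11, Mmp21, Mmp24, Mmp25 and Mmp28 were called at no time.

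Of the 4 inhibitors 1, 1, 2 and 3 rose at days 1, 3, 7 and 21. Timp1, an inhibitor of most metalloproteinases, had 6.34, 6.22, 6.50, 6.74 and 6.57 in day 7 BDL livers and 6.97, 6.67, 7.20, 7.36 and 7.12 in day 21 BDL livers, against 5.61, 4.02, 4.42 and 4.39 in day 7 sham livers. Sham replicate 1 stood above the other 3 sham arrays, and all BDL arrays were above it. The fitted log2 fold change was 1.87 ± 0.25 (SE, adjusted p = 3.0e-06) at day 7, at least 1.48, and 2.45 ± 0.25 (SE, adjusted p = 2.1e-08) at day 21, at least 2.06. Without sham replicate 1 it was 2.20 and 2.79. Day 3 levels were 6.11, 5.02, 5.98, 6.25 and 5.77 in BDL livers, against 4.67 and 4.45 in sham livers (1.27 ± 0.31 SE, adjusted p = 0.008, at least 0.83), and the call was lost without sham replicate 2 (1.16, adjusted p = 0.11). At day 1 the BDL levels of 4.83 to 5.53 overlapped the sham levels of 4.00 to 4.89 (at least 0.16), and the call was lost without BDL replicate 1, 3 or 5 or sham replicate 2 or 3 (0.65 to 0.80, adjusted p up to 0.17).

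Timp2 blocks metalloproteinases and, together with Mmp14, takes part in the activation of Mmp2. It had 7.95, 8.29, 8.41, 8.64 and 8.19 in day 21 BDL livers and 7.50, 7.25, 7.55, 7.75 and 7.67 in day 7 BDL livers, against 7.51, 6.75, 6.74 and 6.80 in day 7 sham livers. Every day 21 BDL array was above all sham arrays, while at day 7 sham replicate 1 lay inside the BDL range. The log2 fold change was 1.35 ± 0.19 (SE, adjusted p = 2.4e-06) at day 21 and 0.59 ± 0.19 (SE, adjusted p = 0.023) at day 7, and without sham replicate 1 it was 1.53 ± 0.18 (SE, adjusted p = 4.4e-07) and 0.78 ± 0.18 (SE, adjusted p = 0.003). The day 7 call was lost without BDL replicate 4 or 5 or sham replicate 2, 3 or 4 (0.52 to 0.56, adjusted p up to 0.078). At days 1 and 3 the differences were -0.18 ± 0.20 (SE, adjusted p = 0.64) and 0.27 ± 0.23 (SE, adjusted p = 0.54). Against all 9 sham arrays, which pool sham livers of days 1, 3 and 7, Timp2 was called lower at day 1 (-0.53, adjusted p = 0.023).

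Timp3 is the inhibitor that binds to the matrix and also blocks ADAM17. Its levels were 8.26, 7.84, 7.85, 8.49 and 7.85 in day 21 BDL livers, against 7.69, 7.29, 7.28 and 6.72 in day 7 sham livers, without overlap (0.81 ± 0.29 SE, adjusted p = 0.038). That call was lost without BDL replicate 1 or 4 or sham replicate 2, 3 or 4 (0.64 to 0.83, adjusted p up to 0.15). Day 7 levels of 6.93 to 8.26 in BDL livers overlapped the sham levels (0.36 ± 0.29 SE, adjusted p = 0.44). Before that its differences were -0.28 at day 1 and -0.50 at day 3, neither called. Against all 9 sham arrays, which pool sham livers of days 1, 3 and 7, Timp3 was called lower at day 1 (-1.07, adjusted p = 0.008). Timp4 was called at no time in the 4 comparisons with sham livers, and was called at day 3 against all 9 sham arrays (0.69, adjusted p = 0.007). Whether the inhibitors differ from each other in their changes was not tested. Its day 1 levels were 4.24, 4.53, 4.35, 4.50 and 5.61 in BDL livers, against 4.45, 4.19 and 4.35 in sham livers, where BDL replicate 5 alone exceeded the filter level.

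Of the 4 lysyl oxidases 0, 1, 3 and 4 rose at days 1, 3, 7 and 21. Lox, which crosslinks collagen and elastin, had 5.69, 5.74, 6.40, 6.27 and 5.92 in day 21 BDL livers and 5.70, 5.15, 5.31, 6.40 and 5.50 in day 7 BDL livers, against 5.74, 4.48, 4.35 and 4.17 in day 7 sham livers. Sham replicate 1 lay inside both BDL ranges and the other 3 sham arrays far below. This gave log2 differences of 1.32 ± 0.25 (SE, adjusted p = 1.6e-04) at day 21, at least 1.01, and 0.93 ± 0.25 (SE, adjusted p = 0.008) at day 7, at least 0.61. Without sham replicate 1 they were 1.67 and 1.28. At day 3 Lox had 5.09, 4.78, 5.55, 5.33 and 5.09 in BDL livers, against 4.13 and 4.26 in sham livers (0.97 ± 0.31 SE, adjusted p = 0.041, at least 0.17), and the call was lost without BDL replicate 1, 3, 4 or 5 or sham replicate 1 or 2 (0.88 to 1.04, adjusted p up to 0.23). At day 1 all its levels were below 5.

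Loxl1, known for its part in elastic fibre assembly, had 7.13, 7.41, 7.55, 7.80 and 7.33 in day 21 BDL livers and 6.42, 6.69, 6.77, 7.21 and 6.91 in day 7 BDL livers, against 6.69, 5.76, 5.97 and 5.68 in day 7 sham livers. The day 21 groups did not overlap and the day 7 groups did, through sham replicate 1. These levels gave log2 fold changes of 1.42 ± 0.18 (SE, adjusted p = 4.8e-07) and 0.78 ± 0.18 (SE, adjusted p = 0.002), and without sham replicate 1 1.64 and 1.00. At day 3 the groups did not overlap and the difference of 0.66 ± 0.22 (SE, adjusted p = 0.052) was not called, although it was without BDL replicate 1 or 2 (0.70 to 0.73, adjusted p up to 0.050).

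Loxl3 had 6.26, 6.90, 6.85, 6.57 and 6.68 in day 21 BDL livers and 6.48, 5.88, 6.66, 6.53 and 6.38 in day 7 BDL livers, against 5.96, 5.73, 5.95 and 5.31 in day 7 sham livers. The day 21 BDL arrays were above all sham arrays, and the day 7 ranges overlapped. Fitted log2 fold changes were 0.91 ± 0.19 (SE, adjusted p = 4.6e-04) and 0.65 ± 0.19 (SE, adjusted p = 0.013), and the day 7 call was lost without sham replicate 4 (0.51, adjusted p = 0.081). Loxl4 was called at day 21 (0.56 ± 0.19 SE, adjusted p = 0.031), with overlapping ranges, and the call was lost without BDL replicate 2, 3 or 4 or sham replicate 1 or 2 (0.36 to 0.55, adjusted p up to 0.13). At day 1 its levels of 6.21 to 6.83 in BDL livers did not overlap 5.69 to 5.98 in sham livers, a difference of 0.56 ± 0.21 (SE, adjusted p = 0.074).

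**Figure D3:**
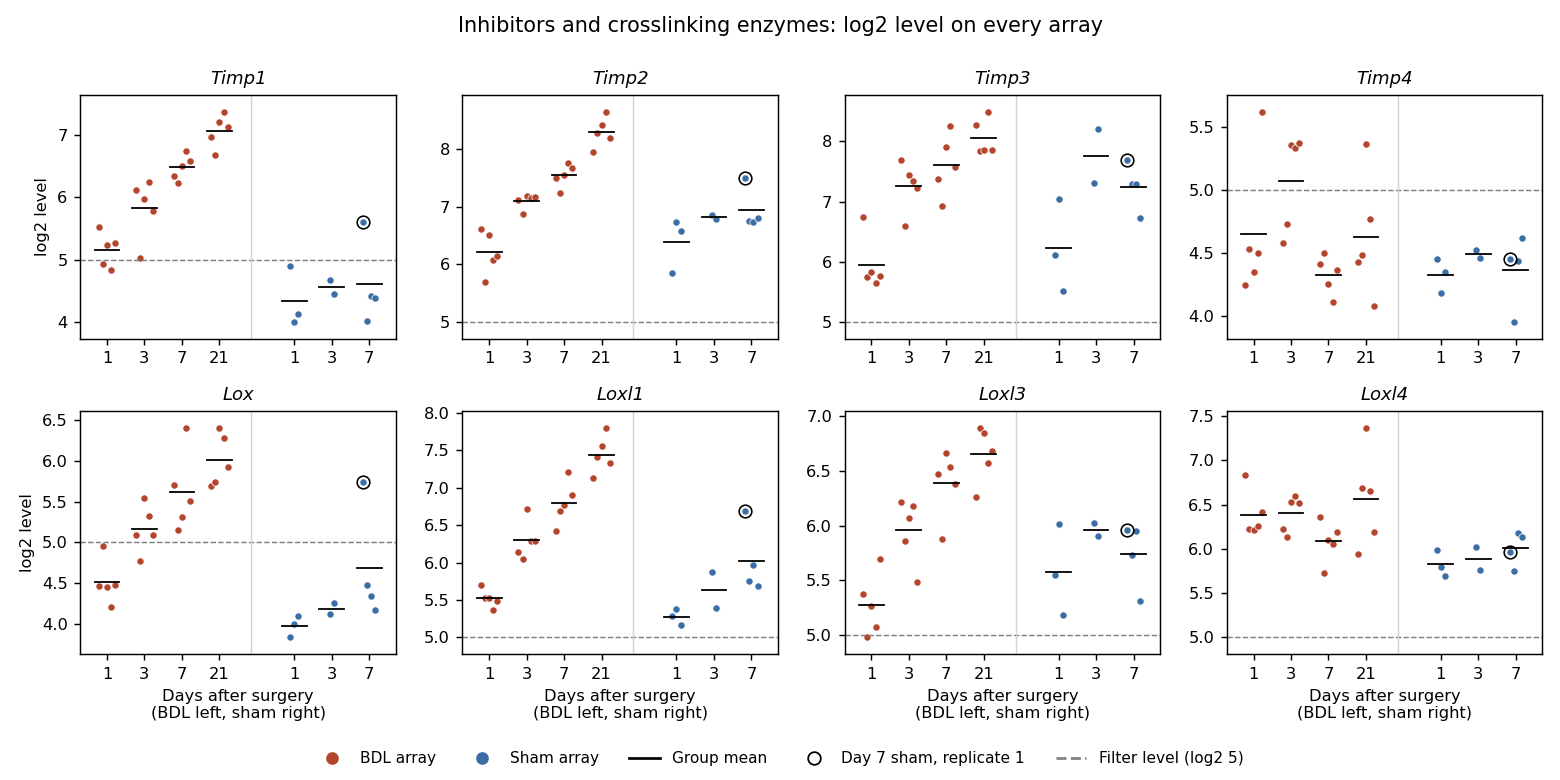
Log2 level (vertical axis, a scale of its own for each gene) of Timp1 to Timp4 and of Lox, Loxl1, Loxl3 and Loxl4 on every array, with BDL groups by day on the left and sham groups on the right; bars are group means, the dashed line is the filter level and the circle marks day 7 sham replicate 1. Timp1 spans 6.67 to 7.36 in day 21 BDL livers, and the circled array stands above the other day 7 sham arrays for Timp1 (5.61), Timp2 (7.51), Lox (5.74) and Loxl1 (6.69).

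Among the ADAM genes, Adam8, a sheddase of leukocytes, rose at every time. Day 1 levels were 5.56, 5.11, 5.84, 5.45 and 6.07 in BDL livers, against 4.97, 5.01 and 4.96 in sham livers (0.63 ± 0.17 SE, adjusted p = 0.013, at least 0.61). Day 3 levels were 5.92, 6.00, 6.05, 6.61 and 6.16 in BDL livers, against 4.98 and 4.73 in sham livers (1.30 ± 0.20 SE, adjusted p = 5.9e-05, at least 1.15). The groups did not overlap at either time. Day 7 levels were 6.02, 5.64, 5.75, 5.65 and 5.96 in BDL livers, and day 21 levels 6.08, 5.93, 6.54, 6.02 and 6.10, against 5.24, 5.22, 5.34 and 4.92 in day 7 sham livers. These did not overlap either, and the log2 fold changes were 0.63 ± 0.16 (SE, adjusted p = 0.005) and 0.95 ± 0.16 (SE, adjusted p = 3.5e-05). The day 1 call was lost without sham replicate 1 or 3 (0.62, adjusted p up to 0.051).

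Adam10, which releases Notch receptors, cadherins and other membrane proteins, had 9.19, 9.13, 9.18, 9.06 and 9.22 in day 7 BDL livers and 9.28, 9.13, 9.42, 9.57 and 9.32 in day 21 BDL livers, against 8.48, 8.38, 8.39 and 8.31 in day 7 sham livers. The groups were separate and each was narrow. Ligated livers differed from sham livers by 0.76 ± 0.16 (SE, adjusted p = 6.1e-04) and 0.95 ± 0.16 (SE, adjusted p = 2.8e-05). Adam15 rose at the same times, by 0.57 ± 0.12 (SE, adjusted p = 7.4e-04) and 0.59 ± 0.12 (SE, adjusted p = 3.3e-04). With the mean of its rows the day 7 difference of Adam15 was 0.19 (adjusted p = 0.21) and the call was lost. At day 21 the lowest value under the alternatives other than leaving out 1 array was 0.30, and the call held. Adam17, the tumour necrosis factor convertase, had differences of 0.33, 0.37, 0.40 and 0.32 at days 1, 3, 7 and 21, none called, with adjusted p of 0.096 at day 7. It was called at day 1 without sham replicate 2 (0.60, adjusted p = 0.022) and at day 7 without BDL replicate 2 (0.48, adjusted p = 0.050). Against all 9 sham arrays Adam17 was called at day 7 (0.60, adjusted p = 0.002) and day 21 (0.52, adjusted p = 0.006). At day 7 it was also called with the kind of array as a term or with only the groups compared (adjusted p = 0.025 and 0.027). With limma arrayWeights it was called at days 1, 7 and 21 (0.54, 0.46 and 0.36). Adam9 was called at no time against sham livers with all arrays, with differences of 0.23, 0.43, 0.11 and 0.26. Without day 1 sham replicate 2 its day 1 difference was called (0.52, adjusted p = 0.014). From day 1 to day 3 it rose in BDL livers (0.49 ± 0.14 SE, adjusted p = 0.016).

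Adam11 and Adam23 belong to the ADAM proteins that lack an active protease site and are best known from neurons. Adam11 had 5.70, 6.06, 6.37, 5.92 and 6.44 in day 1 BDL livers, against 7.09, 6.65 and 7.17 in day 1 sham livers, and all BDL arrays were lower (-0.87 ± 0.19 SE, adjusted p = 0.002). Later the order was the opposite, with 7.43, 7.44, 7.36, 7.37 and 7.55 in day 7 BDL livers and 7.37, 8.20, 7.52, 7.70 and 8.09 in day 21 BDL livers, against 5.95, 6.44, 6.56 and 6.51 in day 7 sham livers. The later BDL arrays were all above the sham arrays. The differences were 1.06 ± 0.17 (SE, adjusted p = 4.5e-05) and 1.41 ± 0.17 (SE, adjusted p = 4.1e-07). Day 1 sham livers themselves stood above day 7 sham livers for Adam11, and against all 9 sham arrays the day 1 difference was -0.40 (adjusted p = 0.11). Adam23 was called at day 21 (0.58 ± 0.19 SE, adjusted p = 0.024), and the call was lost without BDL replicate 3 or 4 or sham replicate 1 or 4 (0.46 to 0.53, adjusted p up to 0.11).

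Adam33 fell at day 1, with 4.89, 5.37, 5.51, 5.18 and 4.67 in BDL livers, against 5.60, 5.68 and 5.49 in sham livers. The ranges overlapped by 1 array and the log2 fold change was -0.47 ± 0.14 (SE, adjusted p = 0.023). The call was lost without BDL replicate 1 or 5 or sham replicate 1 or 2 (-0.46 to -0.36, adjusted p up to 0.077). Within the 4 narrow day 1 arrays the difference was -0.11 (adjusted p = 0.75), and within the other day 1 arrays it was -0.77 (adjusted p = 0.015). Adam12, a metalloprotease of activated mesenchymal cells, was called at no time with all arrays. Its day 7 sham levels were 6.31, 5.12, 4.96 and 4.89, and without replicate 1 the differences were 0.63 ± 0.15 (SE, adjusted p = 0.003) at day 7 and 0.52 ± 0.15 (SE, adjusted p = 0.012) at day 21, both called. Adam1a fell at day 21 (-0.52 ± 0.16 SE, adjusted p = 0.013, at least 0.41 in size), and the call was lost without sham replicate 4 (-0.47, adjusted p = 0.051). Adam19 was called at no time.

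Of the ADAMTS genes, Adamts1 and Adamts9, which cleave the proteoglycan versican, rose at every time. Adamts9 levels were 7.10, 7.12, 7.17, 7.23 and 7.23 in day 7 BDL livers and 6.82, 7.22, 6.80, 7.23 and 7.07 in day 21 BDL livers, against 6.18, 5.67, 5.94 and 6.07 in day 7 sham livers. The groups did not overlap at any of the 4 times. The log2 fold changes of Adamts9 were 0.41 ± 0.14 (SE, adjusted p = 0.043) at day 1, 0.71 ± 0.16 (SE, adjusted p = 0.003) at day 3, 1.20 ± 0.13 (SE, adjusted p = 7.8e-08) at day 7 and 1.06 ± 0.13 (SE, adjusted p = 2.2e-07) at day 21. Its day 1 call was lost without BDL replicate 1, 4 or 5 or sham replicate 1 or 2 (0.31 to 0.42, adjusted p up to 0.23). Adamts1 levels were 6.82, 6.82, 6.70, 7.23 and 6.80 in day 1 BDL livers, against 6.17, 6.52 and 6.05 in sham livers. The log2 fold change of Adamts1 changed little, from 0.63 at day 1 through 0.60 and 0.63 to 0.52 at day 21. Its day 1 call was lost without sham replicate 3 (0.53, adjusted p = 0.060) and its day 3 call without BDL replicate 4 or sham replicate 1 or 2 (0.44 to 0.75, adjusted p up to 0.32).

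Adamts12, which degrades cartilage oligomeric matrix protein, had 7.18, 7.06, 7.31, 7.52 and 7.21 in day 21 BDL livers and 6.57, 7.16, 6.75, 7.12 and 6.60 in day 7 BDL livers, against 5.75, 5.53, 5.84 and 5.97 in day 7 sham livers. No BDL array overlapped a sham array at either time. On the log2 scale the changes were 1.48 ± 0.15 (SE, adjusted p = 3.2e-08) and 1.07 ± 0.15 (SE, adjusted p = 9.4e-06). At day 3 it was 0.66 ± 0.19 (SE, adjusted p = 0.025), and the call was lost without sham replicate 1 (0.46, adjusted p = 0.34). Adamts7, its closest relative, rose by 0.64 ± 0.19 (SE, adjusted p = 0.026) at day 3, 0.60 ± 0.15 (SE, adjusted p = 0.004) at day 7 and 0.82 ± 0.15 (SE, adjusted p = 1.3e-04) at day 21, and the day 3 call was lost without BDL replicate 4 or sham replicate 2 (0.46 to 0.61, adjusted p up to 0.32).

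Adamts4, an aggrecan-cleaving protease, had 5.78, 6.06, 5.66, 5.96 and 5.94 in day 7 BDL livers and 5.50, 5.84, 5.91, 5.97 and 5.85 in day 21 BDL livers, against 4.74, 5.05, 4.87 and 4.75 in day 7 sham livers. All BDL arrays were above all sham arrays. This gave log2 differences of 1.03 ± 0.14 (SE, adjusted p = 4.7e-06), at least 0.88, and 0.96 ± 0.14 (SE, adjusted p = 6.4e-06), at least 0.81. Its day 3 call (0.69) was lost without sham replicate 2 (0.32, adjusted p = 0.45). Adamts5, the other main aggrecanase, was below the filter level on all day 1 and day 3 arrays and rose at day 21 (0.81 ± 0.17 SE, adjusted p = 5.3e-04, at least 0.57). Adamts15 was called at day 3 (0.69 ± 0.21 SE, adjusted p = 0.034), and the call was lost without BDL replicate 1, 3 or 4 or sham replicate 2 (0.42 to 0.69, adjusted p up to 0.44). Adamts10, which acts on fibrillin microfibrils, rose by 0.58 ± 0.20 (SE, adjusted p = 0.037) at day 7 and 0.71 ± 0.20 (SE, adjusted p = 0.007) at day 21, and the day 7 call was lost without BDL replicate 3 or 4 or sham replicate 1 or 3 (0.44 to 0.59, adjusted p up to 0.15).

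Adamts13 cuts von Willebrand factor and is made in the liver, and it was called lower than in sham livers at days 1 and 21. Its levels were 4.73, 5.02, 5.07, 4.78 and 5.14 in day 1 BDL livers, against 5.69, 5.39 and 5.88 in sham livers. The groups did not overlap, and the log2 fold change was -0.71 ± 0.12 (SE, adjusted p = 1.4e-04), at least 0.65 in size. Within the 4 narrow day 1 arrays it was -0.74 (adjusted p = 0.002), and within the others -0.50 (adjusted p = 0.097). At day 3 the levels of 4.80 to 5.12 in BDL livers lay below 5.33 to 5.41 in sham livers. The differences of -0.39 ± 0.14 (SE, adjusted p = 0.067) at day 3 and -0.27 ± 0.11 (SE, adjusted p = 0.087) at day 7 were not called. At day 21 the difference was -0.31 ± 0.11 (SE, adjusted p = 0.034), and that call was lost without BDL replicate 1, 2 or 3 or sham replicate 1, 2 or 3 (-0.31 to -0.27, adjusted p up to 0.090).

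Of the ADAMTSL genes, Adamtsl2, a matrix protein that binds fibrillin and the latent form of transforming growth factor beta, had 7.80, 8.19, 8.36, 8.37 and 7.99 in day 21 BDL livers and 7.21, 7.20, 7.40, 7.93 and 7.48 in day 7 BDL livers, against 6.90, 6.92, 6.70 and 6.60 in day 7 sham livers. All BDL arrays were above all sham arrays. These levels gave log2 fold changes of 1.36 ± 0.15 (SE, adjusted p = 8.9e-08) and 0.66 ± 0.15 (SE, adjusted p = 0.002). At day 3 it was 0.60 ± 0.19 (SE, adjusted p = 0.039), and the call was lost without BDL replicate 1, 3 or 4 or sham replicate 2 (0.34 to 0.60, adjusted p up to 0.51). Adamtsl1 was called at day 21 (0.49 ± 0.14 SE, adjusted p = 0.011, at least 0.30), and the call was lost without sham replicate 4 (0.40, adjusted p = 0.063). Adamtsl4 and Adamtsl5 were called at no time in the 4 comparisons with sham livers, and without BDL replicate 5 Adamtsl4 was called at day 21 (0.39, adjusted p = 0.047). At day 21 Adamtsl4 was also called against all 9 sham arrays (0.31, adjusted p = 0.026). The same held with arrayWeights (0.33, adjusted p = 0.031) and with only the groups compared (0.34, adjusted p = 0.039).

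**Figure D4:**
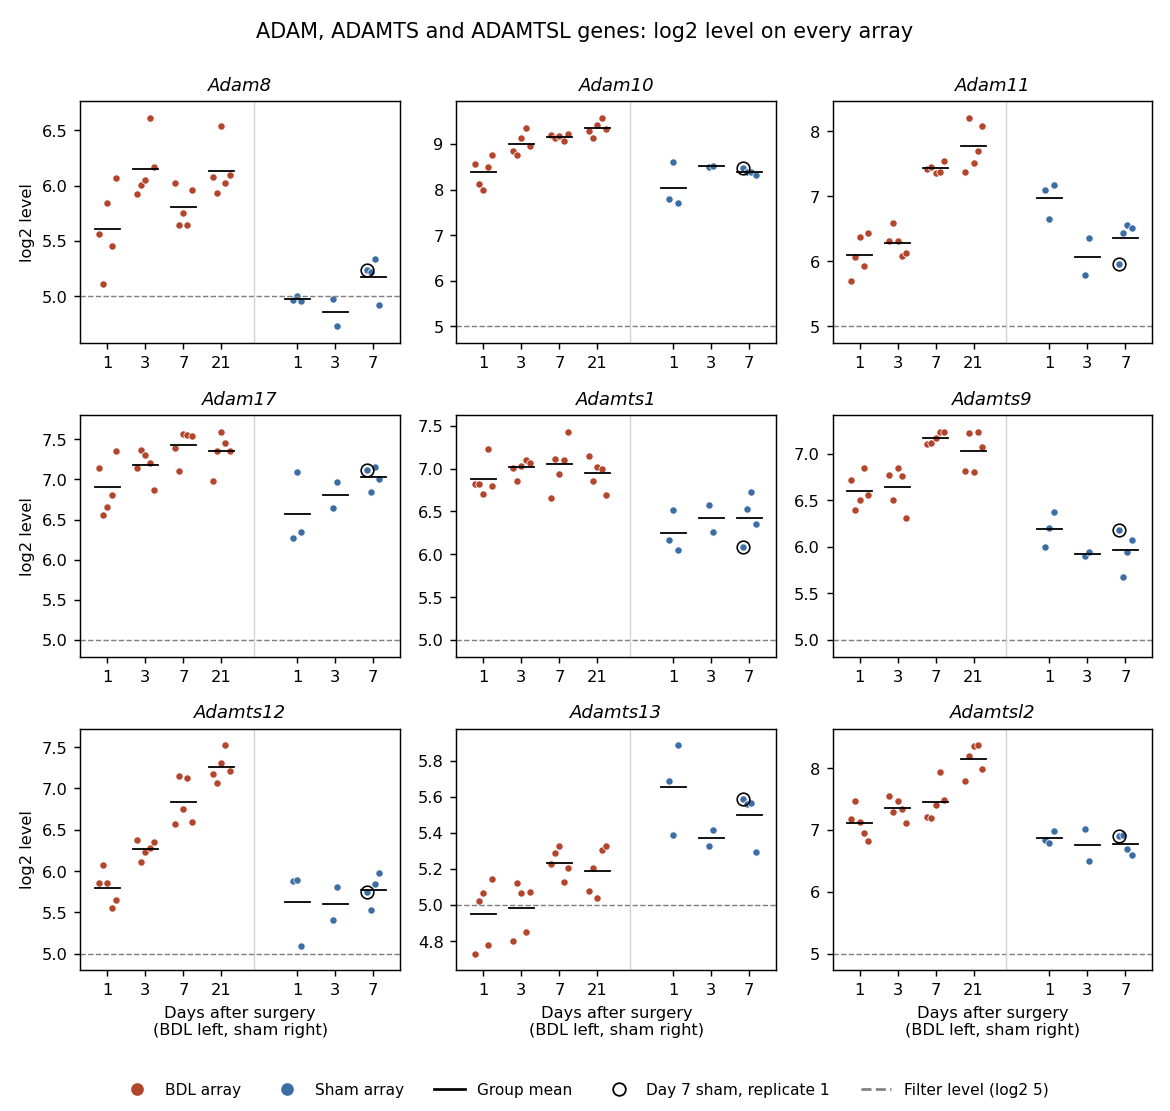
Log2 level (vertical axis, a scale of its own for each gene) of 9 ADAM, ADAMTS and ADAMTSL genes on every array, with BDL groups by day on the left and sham groups on the right; bars are group means, the dashed line is the filter level and the circle marks day 7 sham replicate 1. Adam11 lies at 5.70 to 6.44 in day 1 BDL livers, below the day 1 sham livers, and at 7.36 to 8.20 in day 7 and day 21 BDL livers, above the day 7 sham livers.

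Of the 35 members below the filter, 31 exceeded the filter level on no array and 4 on 1 or 2 arrays (Adam4, Mmp13 and Mmp17 on 1, Adamtsl3 on 2). Their row means ran between 2.31 and 4.76. Among them were 22 Adam genes, most of them known from testis such as Adam2, Adam3, Adam18 and Adam24. They also held Adamts3, Adamts16, Adamts18, Adamts19 and Adamts20 and the metalloproteinases Mmp1a, Mmp1b, Mmp3, Mmp16 and Mmp20. Loxl2 and Adam34 stand in the annotation only on rows with several symbols and were not analysed here. Mmp15 and Adamts2 likewise had no row with their symbol alone and were not analysed.

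The day 1 calls rested on few arrays. The sign was the same for all 11 called members within the 4 narrow arrays and within the other 4 day 1 arrays. The differences within the narrow arrays and within the others were 0.77 and 1.24 for Mmp8, 0.43 and 0.95 for Mmp9, 0.58 and 1.20 for Timp1 and 0.51 and 0.69 for Adam8. They were 0.65 and 0.43 for Adamts1, 0.26 and 0.50 for Adamts9, -0.89 and -0.58 for Mmp27 and -0.92 and -0.63 for Adam11, in the same order. For the others they were 0.97 and 0.77 for Mmp14, -0.11 and -0.77 for Adam33 and -0.74 and -0.50 for Adamts13. Of the 11, 5 were called within the narrow arrays (2 BDL and 2 sham) and 1, Adam33, within the others (3 BDL and 1 sham, where the lone sham array is assumed to vary like the other groups). With the kind of array as a term in the fit, 9 of the 11 were called, the exceptions being Mmp9 and Adamts9. Against all 9 sham arrays 21 members were called at day 1, where 1628 of 14699 genes were called higher and 1570 lower. Among the 21 were 10 of the 11, without Adam11. The 11 added were Mmp7 (0.90), Mmp12 (0.56), Adamts4 (0.59), Adamts7 (0.59), Adamts17 (0.40) and Loxl4 (0.47), which were higher in BDL livers, and Timp3, Mmp2, Timp2, Adamts5 (-0.56) and Loxl3 (-0.46), which were lower. At day 3 the 10 added were Adam9, Adam10, Adam15, Adam23, Loxl1, Loxl4 and Timp4 (0.69), which were higher, and Adam1a, Adamts8 and Adamts13 (-0.54), which were lower, and the call of Adamts15 was lost. With this reference 2208 of all genes tested were called higher at day 3 and 1273 lower. Without day 1 sham replicate 2, Adam9, Adam10 (0.64, adjusted p = 0.006), Adam17 and Adamts7 (0.54, adjusted p = 0.042) were also called at day 1. Leaving out 1 array at a time, 3 of the 11 day 1 calls held every time (Mmp14, Adam11 and Adamts13), 5 of the 14 at day 3 (Mmp7, Mmp12, Mmp14, Adam8 and Adamts9), 16 of the 20 at day 7 and 23 of the 29 at day 21. Without day 7 sham replicate 1, 20 members rose at day 7 (18 of them called with all arrays), against 13.1% of all genes called higher and 4.46% lower. At day 21 27 then rose and 1 fell (26 of them called with all arrays), against 16.0% and 7.13%. The calls lost were those of Mmp9 and Adamts10 at day 7 and of Adam23, Adamts13 and Loxl4 at day 21. The calls gained were those of Adam12 at both days, Mmp2 at day 7 and Mmp23 at day 21. The 44 calls that remained were 0.785 to 1.38 times as large on the log2 scale as with all arrays.

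Between successive times in ligated livers, 14 members rose and 1 fell from day 1 to day 3, where 12% of all genes were called higher and 6.44% lower. Timp3 led with 1.31 ± 0.27 (SE, adjusted p = 0.002), followed by Mmp2 (1.07 ± 0.24 SE, adjusted p = 0.003), Mmp7 (1.04 ± 0.17 SE, adjusted p = 1.6e-04), Adam23 (0.98 ± 0.18 SE, adjusted p = 5.0e-04) and Timp2 (0.89 ± 0.18 SE, adjusted p = 9.9e-04). Day 3 BDL arrays were above all day 1 BDL arrays for Mmp2, Mmp7, Adam23 and Timp2, while for Timp3 the ranges overlapped. With the kind of array as a term, 8 members were called, all of them among the 15, where 834 of all genes were called higher and 645 lower. Of the calls from day 1 to day 3, that of Timp1 was lost in 8 of the 10 fits that left out 1 array (0.56 to 0.70, adjusted p up to 0.13), that of Adamts8, the 1 member that fell (-0.50 ± 0.16 SE, adjusted p = 0.026, at least 0.04 in size), in 5, of Adamts12 in 3, of Adam8 in 2 and of Adam9 (without day 1 replicate 2) and Mmp12 (without day 3 replicate 2) in 1. From day 3 to day 7, 5 members rose (4.6% of all genes) and Timp4 fell (-0.74 ± 0.22 SE, adjusted p = 0.042, at least 0.07 in size, against 1.1%). The risen were Mmp12 (1.69 ± 0.19 SE, adjusted p = 9.9e-06), Adam11 (1.14 ± 0.16 SE, adjusted p = 1.3e-04), Adamts5 (0.86 ± 0.16 SE, adjusted p = 0.001, at least 0.13), Adamts12 (0.57 ± 0.15 SE, adjusted p = 0.018) and Adamts9 (0.53 ± 0.12 SE, adjusted p = 0.006), and for each the day 7 arrays lay above all day 3 arrays. Cyclic loess scaling called 3.99% of all genes higher and 1.83% lower there, and no member lower. Leaving out 1 array ended the call of Timp4 in 7 of 10 fits (-0.77 to -0.67, adjusted p up to 0.12) and that of Adamts12 without day 7 replicate 2 or 4 (0.49 to 0.50, adjusted p up to 0.056). From day 7 to day 21, Timp2 (0.75 ± 0.18 SE, adjusted p = 0.032) and Adamtsl2 (0.70 ± 0.14 SE, adjusted p = 0.012) rose and 0 members fell by limma, where 0.401% of all genes were called higher, 0.463% lower, and 16 members had an unadjusted p under 0.05. The call of Timp2 was lost in 7 of 10 fits that left out 1 array (0.66 to 0.78, adjusted p up to 0.12), and that of Adamtsl2 without day 21 replicate 3 (0.64, adjusted p = 0.050). The BDL arrays here are those of the comparisons with sham livers.

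The effect of ligation was set at day 7 against day 1, as a difference of differences. It was larger at day 7 for 7 members and smaller for 0 by limma, where 3.48% of all genes were called higher and 0.857% lower and 17 members had an unadjusted p under 0.05. The 7 were Mmp12 (2.33 ± 0.31 SE, adjusted p = 2.4e-04), Adam11 (1.94 ± 0.26 SE, adjusted p = 2.4e-04), Mmp27 (1.18 ± 0.28 SE, adjusted p = 0.014, at least 0.80), Mmp7 (1.09 ± 0.27 SE, adjusted p = 0.018), Loxl3 (0.95 ± 0.28 SE, adjusted p = 0.045), Adamts12 (0.89 ± 0.23 SE, adjusted p = 0.023) and Adamts9 (0.79 ± 0.18 SE, adjusted p = 0.012). The day 1 BDL mean of Mmp27 was below the filter level, and for Mmp12 both sham means were, so that its value rests on sham levels not told apart from background. Without the 4 narrow arrays 3 were called, Mmp12, Adam11 and Adamts12, and with the kind of array as a term all 7 were, together with Adam10. Leaving out 1 array at a time, the call of Loxl3 was lost in 11 of 17 fits (0.74 to 0.97, adjusted p up to 0.13) and that of Adamts12 without day 1 sham replicate 1 or 2 or day 7 sham replicate 2 (0.75 to 0.81, adjusted p up to 0.077). Between sham groups, 1 member differed between day 1 and day 7: Loxl1 was lower on all day 1 sham arrays than on any day 7 sham array (-0.75 ± 0.20 SE, adjusted p = 0.035), where 4.11% of all genes were called in either direction. That call was lost without day 7 sham replicate 1 or 3 or day 1 sham replicate 1 or 3 (-0.76 to -0.53, adjusted p up to 0.24). Without day 1 sham replicate 2, 3 members were called higher and 7 lower, where 935 of 14699 genes were called higher and 2105 lower. Between day 3 and day 7 sham livers 0 members and 0% of all genes were called by limma, and at an unadjusted p under 0.05 there were 0 members and 627 genes.

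Genes that work with the members were counted from lists chosen with earlier results of these data known. Of 15 tested genes of procollagen and elastin processing, 2 rose and 1 fell at day 1, 2 rose at day 3, 6 rose and 1 fell at day 7 and 9 rose at day 21. Their median log2 fold change was -0.01, 0.30, 0.48 and 0.68. The transglutaminase Tgm2, which crosslinks matrix proteins by another bond, rose at every time, from 1.32 at day 1 to 2.17 at day 21. Elastin itself (Eln) rose by 1.12 at day 7 and 1.31 at day 21, and the collagen chaperone Serpinh1 by 0.98 and 1.02. Fbln5, which takes part in elastic fibre assembly, rose by 1.12 at day 21. Bmp1, which removes the C-terminal propeptide of procollagens, fell at day 1 (-0.50). Of 12 collagen genes tested, 1, 4, 9 and 11 rose at days 1, 3, 7 and 21 and none was called lower (limma, Benjamini-Hochberg). Col1a1 had differences of 0.49 at day 1, not called, 2.21 at day 3, 2.06 at day 7 and 2.71 at day 21. Col3a1 rose by 2.07 and 2.38 at days 7 and 21, Col1a2 by 1.49 and 2.25, and Col6a3 by 1.29 and 1.63. Day 7 sham replicate 1 was the highest of its group for 10 of 12 collagen genes and 11 of 16 processing genes. Without it, a comparison chosen after seeing the data, 10 and 11 collagen genes rose at days 7 and 21 and Col1a1 had 3.03 and 3.68, Col1a2 2.29 and 3.05 and Col3a1 2.70 and 3.01. Of the processing genes 8 and 9 then rose and 0 fell.

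In the plasminogen system, which activates several metalloproteinase precursors, 1, 2, 3 and 3 of 7 tested genes rose at days 1, 3, 7 and 21. They were the urokinase receptor Plaur (from 0.74 at day 1 to 1.10 at day 21), the tissue activator Plat (1.63 at day 21) and urokinase itself, Plau (0.84 at day 21). Of 13 regulators of these proteases, 4 rose at day 1, 3 at day 3, 4 at day 7 and 6 at day 21, and Pcsk6 fell at days 7 and 21. Thbs1, a matrix protein that binds metalloproteinases, rose from day 1 (1.36) to day 21 (2.19), and Lcn2, which binds Mmp9, rose by 2.42 at day 3 and 2.97 at day 21. Cd44, which anchors Mmp9 at the cell surface, rose by 1.85 at day 7 and 2.18 at day 21, and Thbs2 by 1.04 at day 21. Reck, a membrane-anchored inhibitor, and Furin, which processes Mmp14, rose at day 1 (0.51 and 0.58) and were not called later. Without day 7 sham replicate 1, 3 and 3 genes of the plasminogen system and 5 and 6 regulators rose at days 7 and 21, with Thbs2 (0.67) added at day 7.

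Of the partners and substrates of the ADAM sheddases, 17 were tested. Of these 7 rose at day 1, 7 at day 3, 10 at day 7 and 13 at day 21, and Met fell at day 21. Without day 7 sham replicate 1, 10 and 14 rose at days 7 and 21. Rhbdf2 and Rhbdf1, which bring ADAM17 to the cell surface, rose at every time, by 1.38 and 0.85 at day 1 and 1.26 and 0.90 at day 21. Adam17 itself, as given above, was not called. Its substrate Tgfa rose at day 1 (1.18) and day 3 (0.92) and was not called later, and Hbegf rose at every time. Cdh1, a substrate of ADAM10, rose at every time, with 1.33 at day 3. Axl, whose ectodomain ADAM10 and ADAM17 shed, rose by 1.42 at day 7 and 1.72 at day 21, and the Notch ligand Jag1 by 0.79 and 1.22.

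Markers of liver cell types moved with these groups, and their part in the members' results was not tested. Of 14 stellate cell and fibroblast markers, 0 rose and 1 fell at day 1, 1 rose at day 3, 8 at day 7 and 11 at day 21. Without day 7 sham replicate 1, the highest of its group for 9 of the 14, they were 8 and 9 at days 7 and 21. Their mean log2 level over the list ran 7.80 to 8.41 in day 21 BDL livers and 7.62 to 7.97 in day 7 BDL livers, against 6.97 to 7.60 in day 7 sham livers, whose highest value was that of replicate 1. In the same livers Timp1, Timp2, Mmp2, Lox and Loxl1 were higher, and replicate 1 stood out for them as well. Day 1 levels of this list were 6.31 to 6.78 in BDL livers and 6.42 to 6.94 in sham livers, while Mmp14 and Timp1 were already called.

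Of 11 markers of monocyte-derived macrophages, 4, 6, 10 and 11 rose at days 1, 3, 7 and 21. Their mean ran 7.13 to 7.69 in day 7 BDL livers, against 5.72 to 6.19 in day 7 sham livers, beside the rise of Mmp12 and Adam8. Of 8 Kupffer cell markers, 1, 1, 7 and 7 rose and 1 fell at day 1. Of 8 cholangiocyte markers, 2, 6, 8 and 8 rose at days 1, 3, 7 and 21, with means of 6.37 to 6.74 in day 3 BDL livers, against 5.36 to 5.38 in sham livers, beside the rise of Mmp7. Of 9 tested neutrophil markers, 4, 2, 4 and 4 rose, with means of 5.04 to 5.56 in day 1 BDL livers, against 4.63 to 4.76 in sham livers. The highest of these arrays was BDL replicate 5, which was also the highest for Mmp9, Mmp8 and Adam8. The defining neutrophil markers Ly6g and Camp were below the filter. Of 11 sinusoidal endothelial markers, 0, 1, 1 and 2 rose and 6, 2, 0 and 3 fell at days 1, 3, 7 and 21. Of 5 tested lymphocyte markers, 0 were called at days 1 and 3 and 2 fell at each of days 7 and 21. Without day 7 sham replicate 1, the markers that rose at days 7 and 21 numbered 10 and 10 for monocyte-derived macrophages, 7 and 6 for Kupffer cells, 5 and 3 for neutrophils and 8 and 8 for cholangiocytes, and 1 sinusoidal endothelial marker fell at day 21. Mesothelial markers averaged 5.78 in day 7 sham replicate 1, against 5.16 to 5.35 on the other day 7 sham arrays, and their part in its levels of the members was not tested. Mesothelial (6 tested) and exocrine pancreas (3 tested) markers were called at no time, and of 9 hepatocyte markers 0 to 1 rose and 2 to 3 fell at each time.

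**Figure D5:**
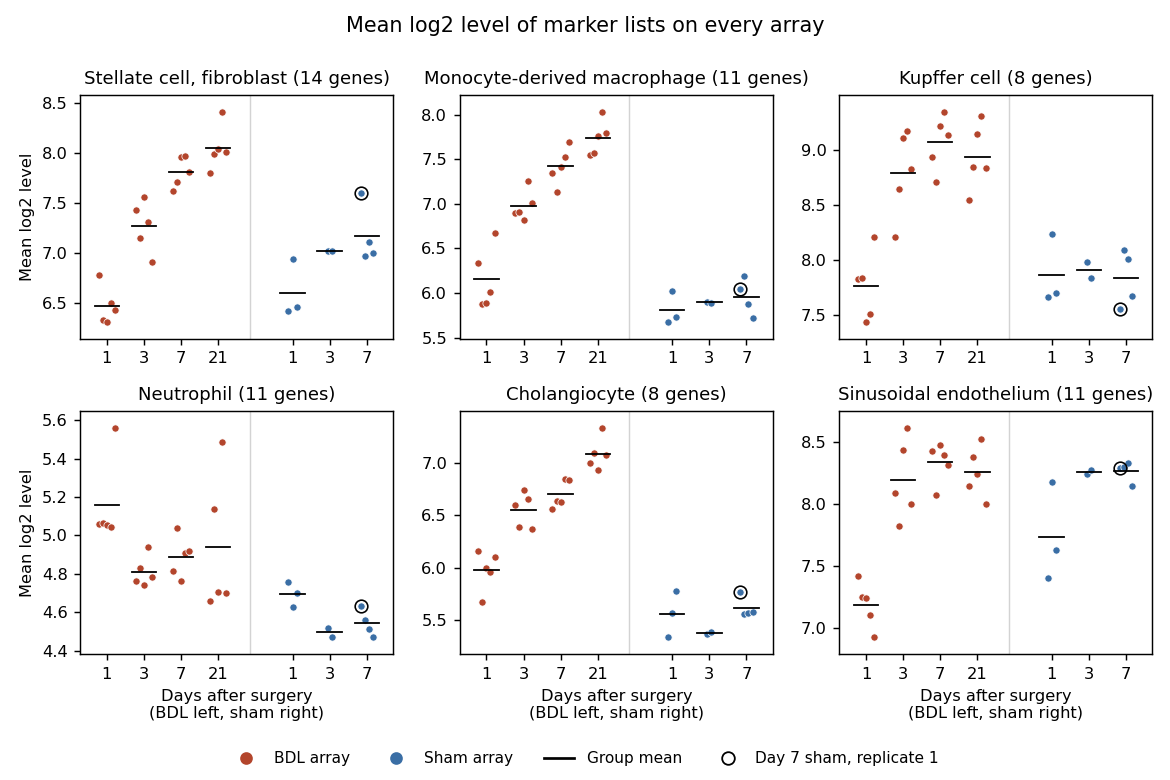
Mean log2 level of 6 lists of cell type markers on every array (vertical axis, a scale of its own for each list), with BDL groups by day on the left and sham groups on the right; bars are group means and the circle marks day 7 sham replicate 1. Monocyte-derived macrophage markers lie at 7.54 to 8.03 in day 21 BDL livers and stellate cell markers at 7.80 to 8.41, while neutrophil markers are highest in day 1 BDL replicate 5.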

How the data were processed

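Liver RNA of 29 mice was measured on 1 Affymetrix array each, and no depth applies, so that the number of arrays limits the precision. Values were deposited as log2 levels. Per the submitters' processing notes, the tools were RMA and oligo 1.52.0. As a method, RMA subtracts background, gives arrays a shared distribution and summarises probes. Near the background such values change less than the RNA does. The genome build, and which arrays were normalized together, are not given in the sources used here. As for the array itself, the labels' protocols name another Affymetrix mouse design than the Mouse Gene ST design whose annotation fits the identifiers and was used for names. Of 41345 rows, 23521 had 1 symbol, 1814 had several and 16010 are unnamed here; 5 rows with several symbols hold a member's symbol and were left out. A RefSeq table of GRCm38.p6 served to update symbols and matched 23328 rows with 1 symbol.

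Arrays were grouped by operation and day as labelled. Each title has its own animal number. The p-values thus rest on the spread among single animals, and replicates are numbered in accession order. limma 3.58.1 (R 4.3.3) fitted 1 mean per group over all 29 arrays (lmFit, eBayes), for genes with a log2 level above 5 in at least 3 arrays, adjusted after Benjamini-Hochberg over 14699 genes. Log2 fold changes are given with their standard error (SE). Scripts were tested on simulated data. Alternatives were no filter, a filter at log2 6, the mean of a gene's rows, cyclic loess, only the groups compared, all 9 sham arrays, the narrow day 1 arrays as a term, alone or left out, arrayWeights, an intensity trend and leaving out each array. The gene lists without day 7 sham replicate 1 were added after the data were seen.

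The members, lists and named genes were chosen with earlier results of these data known. Named are the 12 called members with the largest change per comparison with sham livers, the 5 largest in each other comparison, members named whatever their result, and up to 4 genes per pathway list. Adam1a, Adamts10, Adamts17, Adamts8, Adamtsl1, Mmp10, Mmp11, Mmp21, Mmp24, Mmp25, Mmp28, Bmp1, Reck, Furin, Pcsk6, Rhbdf1, Tgfa, Hbegf and Met fall outside this rule and were named after their values were seen. Members below the filter are named as such.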

Additional observations from a re-analysis of the deposited data

Results flagged for a closer look

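Of 190 groups of 4 to 5 arrays examined, 15 held an array far from the others of its group, and chance alone gives about 1 in 20 groups. The groups were those of the tested members that the naming rule above gave, some of them picked for their large changes. The other tested members were not examined. Day 7 sham replicate 1 was high for Adam12 (6.31, others 4.89 to 5.12) and for Timp2 (7.51, others 6.74 to 6.80). Day 7 sham replicate 4 was low for Adamts13 (5.29, others 5.56 to 5.59). Among day 1 BDL arrays, replicate 5 was high for Mmp9 (7.26, others 5.86 to 6.20) and for Timp4 (5.61, others 4.24 to 4.53), replicate 4 was high for Adamts1 (7.23, others 6.70 to 6.82), and replicate 1 was high for Timp3 (6.75, others 5.64 to 5.83). Among day 3 BDL arrays, replicate 2 was high for Mmp12 (6.66, others 5.54 to 5.82) and low for Adamts4 (5.28, others 5.81 to 5.90) and Timp2 (6.87, others 7.12 to 7.18). Day 3 BDL replicate 3 was low for Adam33 (5.01, others 5.28 to 5.34) and Adamtsl5 (5.21, others 5.62 to 5.77). Among day 21 BDL arrays, replicate 1 was low for Mmp9 (5.54, others 6.29 to 6.46) and Adamts4 (5.50, others 5.84 to 5.97), and replicate 3 was high for Adam8 (6.54, others 5.93 to 6.10). The mean over the neutrophil markers was highest in day 1 BDL replicate 5 (5.56) and, among day 21 BDL arrays, in replicate 4 (5.48), against 4.71 in replicate 3, where Adam8 was high. Its part in the day 1 value of Mmp9 was not tested.

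For 7 members the effect of ligation differed between day 7 and day 1 by the test of the difference itself (limma, Benjamini-Hochberg over 14699 genes). The log2 difference, day 7 minus day 1, was 2.33 for Mmp12 and 1.94 for Adam11, both with an adjusted p of 2.4e-04. It was 1.18 for Mmp27 (adjusted p = 0.014), 1.09 for Mmp7 (0.018), 0.95 for Loxl3 (0.045), 0.89 for Adamts12 (0.023) and 0.79 for Adamts9 (0.012). With group means below the filter level of 5 set to 5, Mmp27 had at least 0.80, while both sham means of Mmp12 were below 5, so that its fitted size is no bound. Adam11 and Mmp27 were lower in BDL livers than in sham livers at day 1, and Adam11 was higher at day 7.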

How the results depend on the processing

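None of the 105 calls over all comparisons changed sign in the 2004 values that the alternatives gave for them; a stricter filter gives none for members below it. Leaving out 1 array at a time, the number of members called ran 6 to 12 at day 1, 8 to 17 at day 3, 18 to 23 at day 7 and 25 to 30 at day 21. It ran 12 to 15 from day 1 to day 3, 5 to 8 from day 3 to day 7, 0 to 3 from day 7 to day 21, 0 to 10 between day 1 and day 7 sham livers, 0 to 0 between day 3 and day 7 sham livers, and 5 to 10 for day 7 against day 1. Other counts moved by over 1.5 times as follows. Day 1 gave 4 with only its own arrays, where 426 of all genes tested were called higher and 278 lower. It gave 21 against all 9 sham arrays and 5 within the 4 narrow arrays, where 773 genes were called higher and 591 lower. Without the narrow arrays, and within the other day 1 arrays, 1 day 1 sham array remained and the counts were lower. Day 3 gave 23 against all 9 sham arrays. Over all genes tested, that reference called 1628 higher and 1570 lower at day 1 and 2208 higher and 1273 lower at day 3. From day 1 to day 3, 8 were called with the narrow arrays as a term, where 834 of all genes tested were called higher and 645 lower. Without them 8 were called, against 814 and 630 genes. From day 3 to day 7, arrayWeights gave 16, where 1369 of all genes tested were called higher and 476 lower. From day 7 to day 21, only the groups compared gave 7 and arrayWeights 8. Between day 1 and day 7 sham livers, cyclic loess gave 2, where 221 genes were called higher and 268 lower. There arrayWeights gave 6, against 487 genes higher and 1392 lower. Only the groups compared gave 0 members and 0 genes, and the narrow arrays as a term gave 0 members, with 1 gene higher and 0 lower. Without the narrow arrays 1 day 1 sham array remained for this comparison and for the day 7 against day 1 difference, and both counts were lower. Causes of these shifts were not tested. Fits that leave arrays out also rest on fewer arrays. Cyclic loess turned the split over all genes between day 1 and day 7 sham livers to 1.51% higher and 1.83% lower, and moved the median of all genes by at most 0.046. Calls that held under every alternative were 0 of 11 at day 1, 5 of 14 at day 3, 14 of 20 at day 7 and 23 of 29 at day 21. No paired analysis was possible because the labels give the groups no shared replicate numbers.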
